A study of Mus musculus with 6 samples.

Results

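The guidance genes first described for growing axons were examined in primary mouse hepatic stellate cells, the retinoid-storing pericytes of the liver that become collagen-producing myofibroblasts after injury. They were all rows of the deposited count table named as a Slit, Robo, semaphorin (Sema), plexin (Plxn), neuropilin (Nrp), Eph receptor (Eph), ephrin (Efn), netrin (Ntn) or Unc5 gene, 64 of 22966 genes in all. Other genes of these families are not analysed here. RNA sequencing libraries titled Cre (n = 3) were compared with libraries titled flox (n = 3). Every library carried the same genotype entry, BucheHep, and the same treatment entry, CCl4, a hepatotoxin used to induce liver fibrosis. The groups therefore rest on the titles, and the series describes a knockout of butyrylcholinesterase in hepatocytes, not in the stellate cells themselves. Neither the promoter driving Cre nor the age or number of animals behind a library is given in the labels, so the p-values measure the spread between these libraries, which may be technical.

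Guidance signalling runs through pairs of a ligand and a receptor on neighbouring cells. Secreted Slits bind Robo receptors, semaphorins bind plexins, most secreted class 3 semaphorins through a neuropilin co-receptor, ephrins on one cell surface engage Eph tyrosine kinases on the next, and netrins bind Unc5 receptors as well as Dcc and neogenin. Most of these pathways end on small GTPases and the actin cytoskeleton, and they act outside the nervous system too, in vessel patterning, leukocyte movement and mesenchymal cell contraction.

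The libraries held 37273142 to 41006722 counts. Levels are given as CPM, counts scaled to library size, after TMM scaling, a factor for library composition, and fold changes as log2 of Cre over flox with their standard error, from edgeR's quasi-likelihood test with Benjamini-Hochberg adjustment over all 14795 genes tested. A gene was called at an adjusted p below 0.05. The first principal component of the 6 libraries held 68.4% of the variance and placed Cre 1, 2 and 3 at -47.2, -52.6 and -33.5 and flox 1, 2 and 3 at 54.1, 75.0 and 4.11, so flox 3 stood apart from the other flox libraries. The gene of butyrylcholinesterase, Bche, had 15, 8 and 2 counts in Cre 1, 2 and 3 and 17, 6 and 21 counts in flox 1, 2 and 3. The groups overlapped, and counts in stellate cell preparations cannot check the knockout that the series describes in hepatocytes. Cell type markers differed between libraries too. All 12 macrophage and Kupffer cell markers fell in Cre libraries, with summed levels of 1216 to 1853 CPM in Cre and 6938 to 16744 CPM in flox. Stellate markers overlapped between the groups, at 364 to 703 CPM in Cre and 369 to 485 CPM in flox, and 1 of 12 was called, the transcription factor Hand2, which was higher in Cre. Lrat, the retinol-esterifying enzyme that defines quiescent stellate cells, was low, with 41, 7 and 31 counts in Cre 1, 2 and 3 and 95, 84 and 5 counts in flox 1, 2 and 3. Mesothelial markers summed to 182 to 794 CPM in Cre and 139 to 226 CPM in flox, with Cre 1 and Cre 2 high and Cre 3 within the flox range. In edgeR 0 of those 7 markers were called, with 5 at an unadjusted p below 0.05, and all 7 had positive log2 fold changes. Without Cre 3 edgeR called 6, all higher in Cre, without flox 3 it called 1, and without any other library 0. DESeq2, a second count test, called 5, all higher in Cre. Endothelial markers summed to 2744 to 4764 CPM in Cre and 1992 to 5912 CPM in flox, highest in flox 3 and Cre 2, and 1 of 12, the sinusoidal lectin Clec4g, fell. Of the remaining marker lists, edgeR called 0 of 8 tested hepatocyte, 0 of 6 cholangiocyte, 0 of 4 smooth muscle, 0 of 5 lymphocyte, 0 of 1 Schwann and neuronal and 0 of 1 neutrophil genes, of which 2, 0, 3, 1, 0 and 0 had an unadjusted p below 0.05. DESeq2 called 3 endothelial markers and 1 hepatocyte marker, all lower in Cre. It also called 2 stellate markers, 1 higher and 1 lower, and 3 smooth muscle markers, 2 higher and 1 lower. Summed macrophage and summed endothelial markers each exceeded summed stellate markers in every library. Levels of the guidance genes therefore belong to the whole preparation and cannot be assigned to stellate cells. In such bulk samples, fewer cells of a type and less RNA per cell cannot be told apart.

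**Figure D1:**
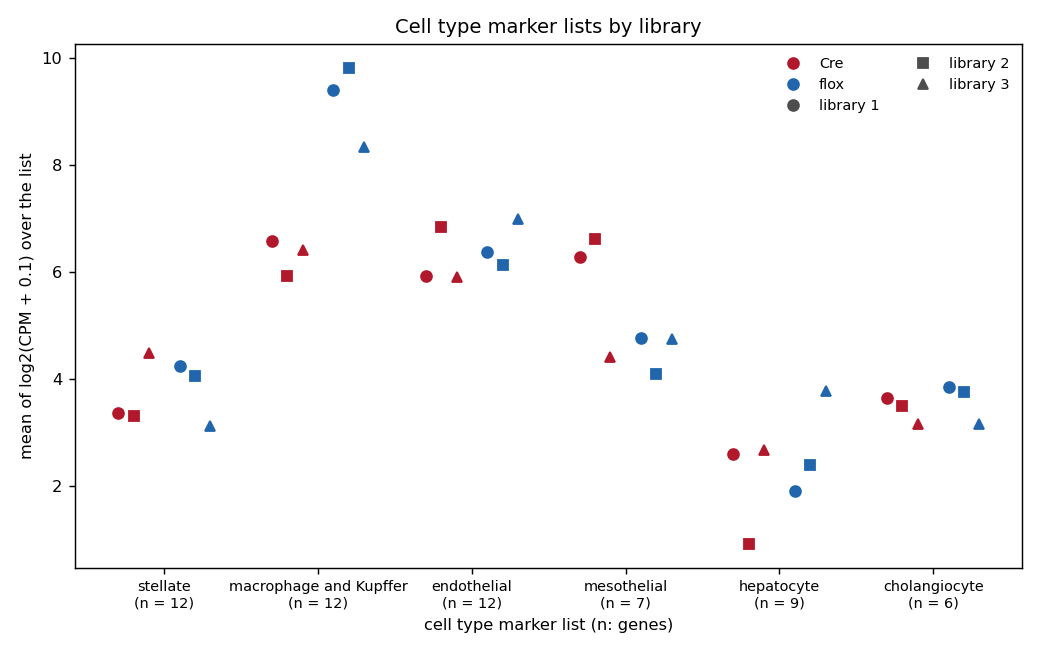
Mean of log2(CPM + 0.1) over 6 cell type marker lists (y axis) in each library, Cre libraries left of flox libraries, with symbols for the library number. The macrophage list of the flox libraries lies between 8.34 and 9.82, above all Cre libraries, and the mesothelial list is high in Cre 1 and Cre 2 alone.

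Of the 64 guidance genes, 58 passed the filter on low counts, and 6 rose and 1 fell in Cre libraries. The background over all genes tested was 15.3% called in either direction, 6.35% higher and 8.94% lower. The guidance genes stood at 12.1% called, near the background for both directions together. By direction they had 10.3% higher, above the 6.35%, and 1 of 58 lower, below the 8.94%, and these differences were not tested. The background by direction depends on the scaling. With library totals in place of TMM, 1415 of 14795 genes were higher and 1066 lower, beside 6 and 1 of the 58. The guidance genes that rose were the ligands Slit2, Sema3a, Sema3d, Sema5a and Efna5 and the receptor Epha4, and the gene that fell was Slit1. The median log2 fold change of the 58 was 0.49, beside 0.01 over all genes tested, and 38 of the 58 lay on the positive side, beside 7543 of 14795 over all genes. By role, 5 of 32 tested ligands rose and 1 fell, and 1 of 26 tested receptors rose and 0 fell in edgeR. At an unadjusted p below 0.05 there were 14 ligands and 7 receptors, and DESeq2 called 12 ligands and 6 receptors. Together these were 21 and 18 of the 58, near the background of 5150 and 4334 of all 14795 genes tested. The difference between the roles was not tested. The edgeR count fell to 0 when Cre 1, Cre 2, flox 1 or flox 2 was left out, where 10, 17, 14 and 13 guidance genes had an unadjusted p below 0.05, and leaving out flox 3 gave 14 higher and 7 lower. Calls were common among all genes in that fit too, with 5329 of 15296 past the threshold, 2447 higher and 2882 lower. A pass in edgeR only after the omission of flox 3 therefore does not set a guidance gene apart. DESeq2, run on all 6 libraries alone, called 13 higher and 5 lower, beside 1976 and 2358 of all 14795 genes.

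**Figure D2:**
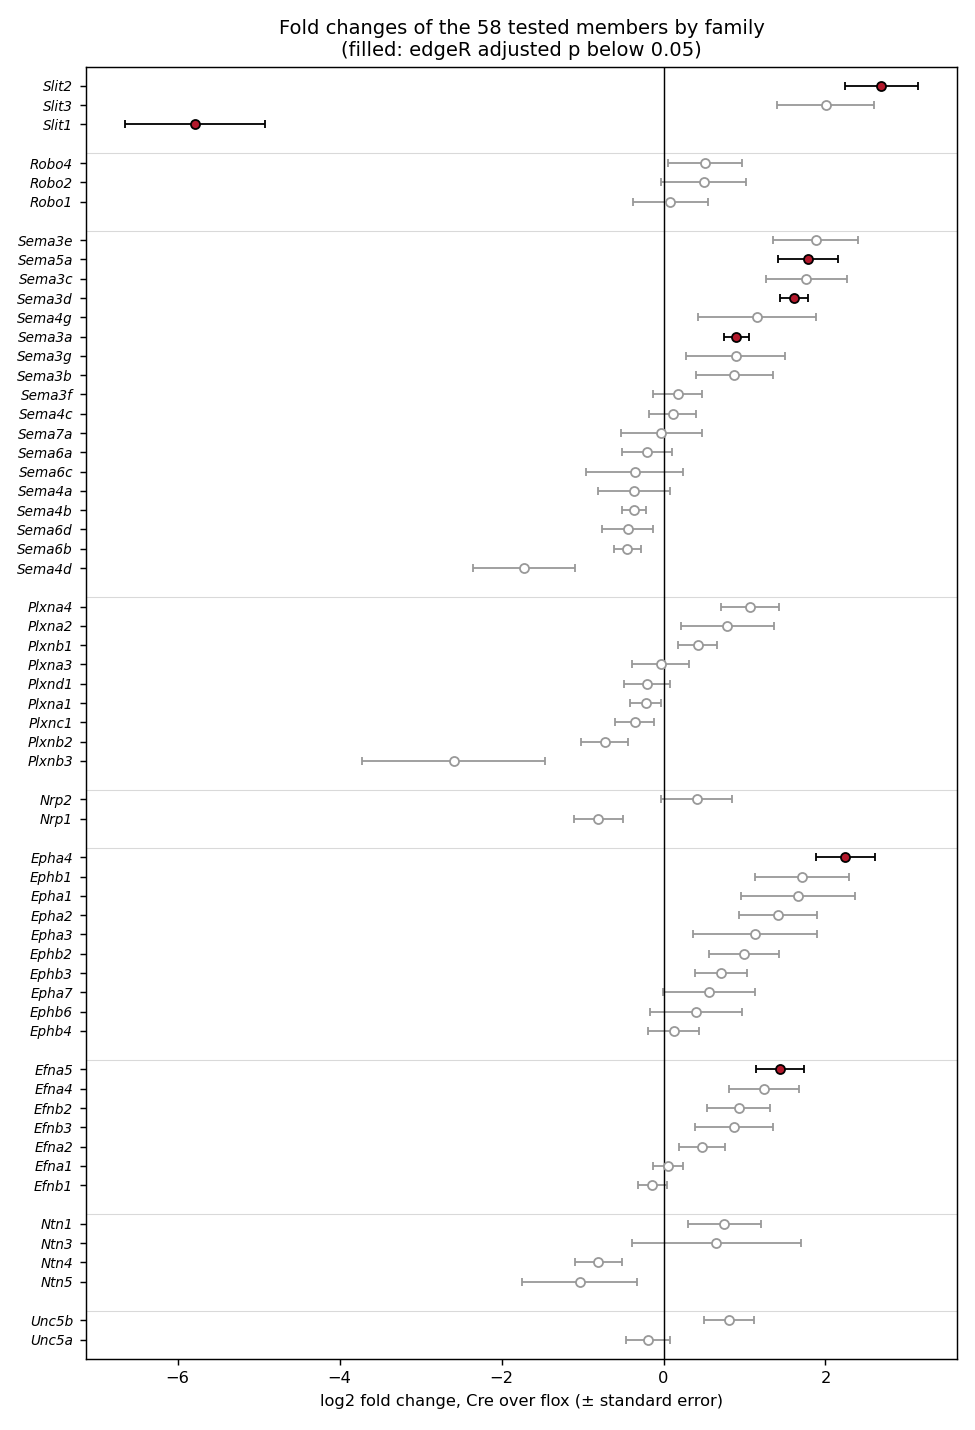
Log2 fold change, Cre over flox, with its standard error (x axis) for each of the 58 tested guidance genes, grouped by family (y axis), filled where the edgeR adjusted p was below 0.05. Filled points are 6 on the positive side, from 0.90 for Sema3a to 2.69 for Slit2, and Slit1 at -5.78.

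Promoter windows are shown for 3 of the genes that rose, because they differed in the same direction between the groups: Slit2 with the steepest rise, Sema3d with the lowest p and Epha4, the receptor. Each runs from 250 bases before to 50 after an annotated start in RefSeq on GRCm38.p6, 5′ to 3′ on the gene's strand. Capitals mark matches, on either strand, to the GC box GGGCGG or the TATA box TATAAA, and the TEAD motif GGAATG and the AP-1 motif TGANTCA were searched likewise, overlapping matches included.
Slit2 (chr5:47982905-47983204, plus strand): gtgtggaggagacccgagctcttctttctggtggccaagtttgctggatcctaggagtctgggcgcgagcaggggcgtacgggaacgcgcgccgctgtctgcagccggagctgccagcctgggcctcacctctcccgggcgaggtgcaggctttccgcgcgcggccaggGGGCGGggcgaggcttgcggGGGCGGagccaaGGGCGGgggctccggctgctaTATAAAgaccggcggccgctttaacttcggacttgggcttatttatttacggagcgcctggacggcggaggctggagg
Sema3d (chr5:12382916-12383215, plus strand): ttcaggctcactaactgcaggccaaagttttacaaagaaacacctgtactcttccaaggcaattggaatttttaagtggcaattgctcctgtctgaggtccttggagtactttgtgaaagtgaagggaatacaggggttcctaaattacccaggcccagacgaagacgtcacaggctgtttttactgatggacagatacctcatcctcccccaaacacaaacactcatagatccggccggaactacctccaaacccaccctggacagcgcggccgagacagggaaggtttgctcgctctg
Epha4 (chr1:77515039-77515338, minus strand): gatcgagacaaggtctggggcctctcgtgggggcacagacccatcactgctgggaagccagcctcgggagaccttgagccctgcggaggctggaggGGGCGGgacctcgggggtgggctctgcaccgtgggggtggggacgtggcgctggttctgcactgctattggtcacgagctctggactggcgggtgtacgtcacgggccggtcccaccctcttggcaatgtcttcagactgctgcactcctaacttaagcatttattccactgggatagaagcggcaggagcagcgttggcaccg
The Slit2 window holds 3 GC boxes and 1 TATA box at 68% G and C bases, that of Epha4 1 GC box at 64%, and that of Sema3d none of the 4 motifs at 49.7%. Over all 32851 promoter windows 35.7% hold a GC box, 13.6% a TATA box, 14.7% the TEAD motif and 7.81% the AP-1 motif. Of 72 windows of 56 guidance genes with an entry, 69.4%, 2.78%, 12.5% and 4.17% do. Windows of the other genes that rose, Sema3a, Sema5a and Efna5, hold 0, 5 and 4 GC boxes and none of the other motifs. The other 8 of the 64 genes, Slit1 among them, had no entry matched. A match describes the letters only.

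Slits are large secreted glycoproteins, and 2 of the 3 changed, in opposite directions. Slit2 (chromosome 5, 47983138 to 48307733 in GRCm38, the build of all positions given here) had 14.2, 8.83 and 6.14 CPM in Cre 1, 2 and 3, against 0.972, 1.32 and 2.21 CPM in flox 1, 2 and 3. Every Cre library lay above every flox library, and the log2 fold change was 2.69 ± 0.45 (edgeR adjusted p = 0.0241), the steepest rise among the guidance genes. Slit3 (chromosome 11, 35121224 to 35708507) stood at 38.4, 64.9 and 13.7 CPM in the Cre libraries, against 13.6, 5.20 and 10.3 CPM in the flox libraries. Its groups did not overlap either, but Cre 3 and flox 1 nearly met, and its log2 fold change of 2.01 ± 0.60 missed the threshold (edgeR adjusted p = 0.0665). It passed without Cre 3, at an adjusted p of 0.0383 in edgeR, and in DESeq2 (adjusted p = 0.00367).

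Slit1 (chromosome 19, 41600257 to 41743665) had 4, 1 and 1 counts in Cre 1, 2 and 3, against 78, 184 and 53 counts in flox 1, 2 and 3. All Cre libraries were close to 0, and the flox libraries were low but clearly covered. Over the summed and scaled counts Cre was at 0.0176 of flox, with an exact 95% interval of 0.00642 to 0.0388 that covers counting error only, and the edgeR adjusted p was 0.0237. Macrophage markers were also far lower in every Cre library and lowest among flox libraries in flox 3, the library with the lowest Slit1 count in that group, and their part in the Slit1 result was not tested.

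Robo receptors, through which Slits signal, showed no call. Robo1 (chromosome 16, 72308306 to 73046095) had 59.3, 99.9 and 86.2 CPM in Cre 1, 2 and 3, against 55.0, 39.4 and 137 CPM in flox 1, 2 and 3, and Robo2 (chromosome 16, 73891839 to 74411825) had 22.2, 25.1 and 82.2 CPM in the Cre libraries, against 38.2, 32.1 and 21.5 CPM in the flox libraries. The highest Robo1 library was flox 3, whereas Robo2 stood out in Cre 3, the library with the highest stellate marker mean, 4.48 log2 CPM. Log2 fold changes were 0.09 ± 0.46 for Robo1 and 0.50 ± 0.53 for Robo2 (edgeR adjusted p of 0.915 and 0.539), less than the spread between libraries, and without Cre 3 that of Robo2 was -0.35. Robo4, the endothelial member, had 53.7, 135 and 62.6 CPM in the Cre libraries, against 47.8, 36.6 and 91.8 CPM in the flox libraries. It was highest in Cre 2 and flox 3, the libraries with the highest endothelial marker means of 6.84 and 6.99 log2 CPM, and it differed by 0.51 ± 0.46 on the log2 scale (edgeR adjusted p = 0.461). That value was 0.0058 without Cre 2 and 0.99 without flox 3. The part of stellate and endothelial cells in the Robo2 and Robo4 values was not tested. Robo3 had at most 16 counts in a library and was not tested.

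**Figure D3:**
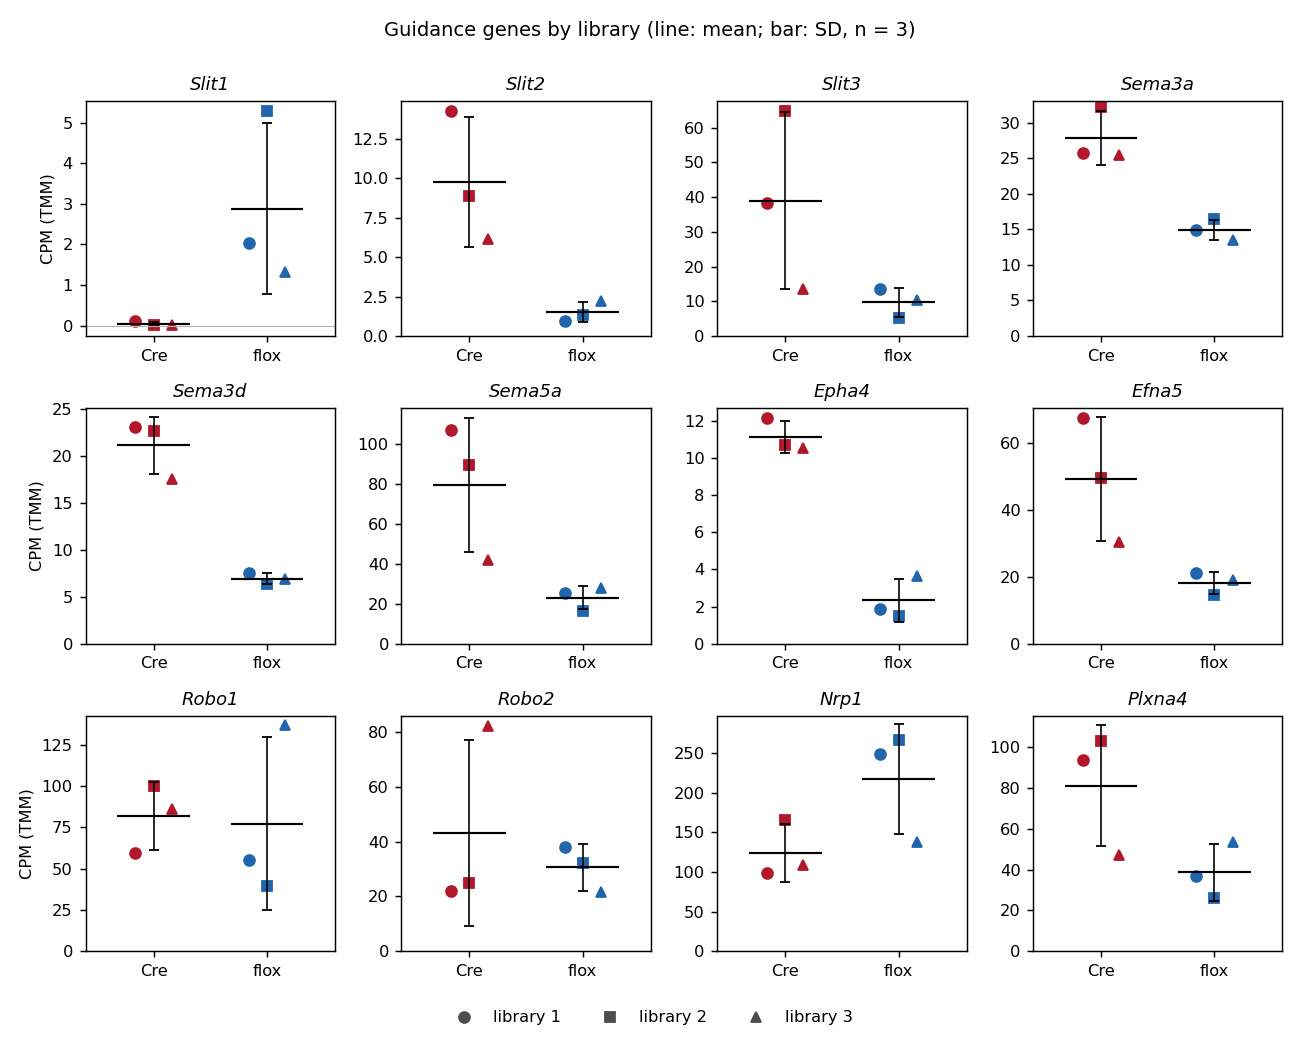
TMM-scaled CPM (y axes, each with its own range) of 12 guidance genes in each library, Cre left of flox, with the mean (line) and SD (bar) of 3 libraries and a symbol for the library number. Slit2, Sema3a, Sema3d, Sema5a, Epha4 and Efna5 separate with Cre above flox, Slit1 separates the other way, Slit3 nearly meets, and Robo1, Robo2, Nrp1 and Plxna4 overlap.

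Secreted class 3 semaphorins lay on the positive side throughout: 7 of 7 had a positive log2 fold change, with a median of 0.90, 2 rose and 5 had groups that did not overlap. Over all genes tested 39.6% did not overlap, 19.6% with Cre above flox. Sema3f, 1 of the 7, turned slightly negative without Cre 2 or flox 2. Sema3d, a ligand known from vascular and cardiac patterning, had 23.1, 22.6 and 17.6 CPM in Cre 1, 2 and 3, against 7.56, 6.35 and 6.84 CPM in flox 1, 2 and 3. Replicates were tight and the groups far apart, at 21.1 ± 3.07 CPM in Cre and 6.92 ± 0.609 CPM in flox (SD, n = 3), a log2 change of 1.61 ± 0.17 (edgeR adjusted p = 0.0226, the lowest among the guidance genes). Sema3a, the classical collapsing factor for growth cones, had 25.8, 32.2 and 25.5 CPM in Cre 1, 2 and 3, against 14.9, 16.4 and 13.5 CPM in flox 1, 2 and 3. The groups did not overlap and the change was smaller, at 0.90 ± 0.15 (edgeR adjusted p = 0.0244).

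Sema3c and Sema3e showed larger but more uneven differences. Sema3e, which can signal through plexin D1 without a neuropilin, had 37.6, 17.2 and 12.0 CPM in the Cre libraries, against 5.02, 3.62 and 9.50 CPM in the flox libraries. Sema3c, a ligand of neuropilins in cardiovascular development, had 60.4, 46.8 and 19.4 CPM in the Cre libraries, against 11.9, 6.93 and 18.5 CPM in the flox libraries. In both genes Cre 1 was highest and Cre 3 came close to flox 3, and neither passed, with log2 fold changes of 1.88 ± 0.53 for Sema3e and 1.76 ± 0.50 for Sema3c (edgeR adjusted p of 0.058 and 0.0592). Both passed in DESeq2, with adjusted p of 0.00311 and 0.00343, and without flox 3 in edgeR. The class 3 gene with the highest level, both in CPM and in FPKM, was Sema3f. It had 92.1, 142 and 101 CPM in the Cre libraries, against 83.1, 69.2 and 144 CPM in the flox libraries, with overlapping groups and a log2 change of 0.18 ± 0.30 (edgeR adjusted p = 0.712). Sema3b and Sema3g were low, at 0.197 and 0.782 FPKM on average, with log2 fold changes of 0.87 ± 0.48 and 0.89 ± 0.61, neither past the test.

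The genes Sema3a, Sema3c, Sema3d and Sema3e lie together on chromosome 5, within 5.35 Mb from 12383385 to 17730268. Of the 6 other genes of the count table inside that span, 2 were tested. They were Cacna2d1, a calcium channel subunit, at a log2 fold change of 0.63 ± 0.33, and the hepatocyte growth factor gene Hgf at 0.17 ± 0.21, with overlapping groups and edgeR adjusted p of 0.225 and 0.592.

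Semaphorins of classes 4 to 7 are mostly anchored in the membrane, and 1 of them rose. Sema5a, a transmembrane semaphorin with thrombospondin repeats (chromosome 15, 32244810 to 32696341), had 107, 89.5 and 42.0 CPM in Cre 1, 2 and 3, against 25.2, 16.4 and 27.7 CPM in flox 1, 2 and 3. The groups did not overlap, Cre 3 was the lowest Cre library, and the log2 fold change was 1.78 ± 0.37 (edgeR adjusted p = 0.0305). Its paralog Sema5b had at most 4 counts in a library. Among the class 4 genes, Sema4d, known as CD100 on leukocytes, differed most, with 25.5, 21.7 and 36.5 CPM in the Cre libraries, against 115, 140.3 and 21.6 CPM in the flox libraries. Here flox 1 and flox 2 were high while flox 3 lay just below every Cre library, so the groups overlapped and the log2 fold change of -1.72 ± 0.63 did not pass in edgeR (adjusted p = 0.107) and did in DESeq2 (adjusted p = 0.019). Macrophage marker means were 6.58, 5.92 and 6.42 log2 CPM in Cre 1, 2 and 3 and 9.41, 9.82 and 8.34 log2 CPM in flox 1, 2 and 3, with flox 3 again lowest in its group, and their part was not tested. Without flox 3 the value was -2.19 and passed (edgeR adjusted p = 0.00173).

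The other class 4 genes ran from -0.37 for Sema4b to 1.16 for Sema4g, none past the test. Sema4b, the highest of class 4 per length in FPKM, had 59.8, 59.0 and 63.2 CPM in the Cre libraries, against 84.5, 88.3 and 62.1 CPM in the flox libraries, with flox 3 inside the Cre range. Without flox 3 its log2 fold change was -0.51 and passed (edgeR adjusted p = 0.00754). Class 6 semaphorins, transmembrane ligands of class A plexins, all lay on the negative side, from -0.45 for Sema6b to -0.20 for Sema6a, with 0 of 4 past the test in either edgeR or DESeq2 and 1 at an unadjusted p below 0.05. That gene, Sema6b, had 23.9, 35.3 and 27.3 CPM in the Cre libraries, against 35.6, 41.7 and 40.4 CPM in the flox libraries, Cre below flox without overlap, and Sema6a turned to 0.20 without flox 3. Sema7a, the membrane-linked ligand of plexin C1, was at -0.03 ± 0.50, and its sign changed with library totals.

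Plexins and neuropilins are the semaphorin receptors, and they showed 0 calls among 11 in edgeR, with 3 at an unadjusted p below 0.05 and 3 calls in DESeq2. Over all 14795 genes tested these counts were 2263, 5150 and 4334. Plxnb2, a receptor for class 4 semaphorins, had 514, 438 and 502 CPM in the Cre libraries, against 902, 1039.6 and 469 CPM in the flox libraries. It was high in flox 1 and flox 2 alone, at a log2 change of -0.73 ± 0.29 (edgeR adjusted p = 0.126), and passed without flox 3 (edgeR adjusted p = 0.00266). Plxnb3 had the steepest negative value among the plexins, -2.59 ± 1.13, from 0.325, 1.38 and 0.0978 CPM in the Cre libraries, against 4.18, 6.21 and 0.547 CPM in the flox libraries, with the same libraries high (edgeR adjusted p = 0.156, and 0.0478 in DESeq2). It was -4.05 without Cre 2 and passed without flox 3 (edgeR adjusted p = 0.0446). Macrophage markers were highest in flox 1 and flox 2 too, and their part was not tested.

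Class A plexins, which pair with neuropilins for class 3 semaphorins, differed among themselves. Plxna4 had 93.5, 103 and 47.1 CPM in the Cre libraries, against 36.7, 26.0 and 53.4 CPM in the flox libraries, high in Cre 1 and Cre 2, with a log2 change of 1.07 ± 0.36 (edgeR adjusted p = 0.0907, and 0.0264 in DESeq2). Without flox 3 it was 1.38 and passed (edgeR adjusted p = 0.0311). Plxna2 had 149.6, 221 and 146 CPM in the Cre libraries, against 58.2, 42.6 and 198 CPM in the flox libraries. Its flox 3 value exceeded that of Cre 1 and Cre 3, and its log2 fold change of 0.79 ± 0.57 (edgeR adjusted p = 0.362) became 1.78 without flox 3 (edgeR adjusted p = 0.00407). Plxna1, the highest of the class both in CPM and in FPKM, had 302, 257 and 418 CPM in the Cre libraries, against 388, 403 and 349 CPM in the flox libraries, with a log2 fold change of -0.22 ± 0.19 and overlapping groups. Plxna3 was low, with 3.85, 2.12 and 3.55 CPM in the Cre libraries, against 4.04, 3.33 and 2.39 CPM in the flox libraries. Its groups overlapped at -0.04 ± 0.35, and the sign changed with library totals. Plxnd1, the receptor of Sema3e, had 225, 344 and 461 CPM in the Cre libraries, against 364, 322 and 501 CPM in the flox libraries, with overlapping groups and a log2 fold change of -0.20 ± 0.29 that turned slightly positive without Cre 1 or flox 3. Plxnb1 and Plxnc1 were at 0.42 ± 0.24 and -0.36 ± 0.24, neither past the test.

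Nrp2, co-receptor of Sema3c and Sema3f and of lymphangiogenic VEGF, had the highest level per length of all 64 genes. It had 1013, 1184 and 1109 CPM in Cre 1, 2 and 3, against 579, 433 and 1476 CPM in flox 1, 2 and 3. The 3 Cre libraries were alike, whereas the level in flox 3 was above all of them and those in flox 1 and flox 2 were below, so the log2 fold change was 0.41 ± 0.44 (edgeR adjusted p = 0.541) and 1.13 without flox 3 (edgeR adjusted p = 0.00461). Nrp1, co-receptor of Sema3a and of VEGF-A, had 98.5, 166 and 109 CPM in the Cre libraries, against 249, 266 and 138 CPM in the flox libraries. It was lower in Cre 1 and Cre 3 than in each flox library and Cre 2 exceeded flox 3, with a log2 fold change of -0.81 ± 0.30 that did not pass in edgeR (adjusted p = 0.114) and just passed in DESeq2 (adjusted p = 0.0492). Without flox 3 it was -1.05 and passed (edgeR adjusted p = 0.0169). The microRNA gene Mir1903 overlaps an Nrp1 exon.

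Eph genes encode receptor tyrosine kinases, and 10 of the 11 were tested. These had positive log2 fold changes with a median of 1.06, and 1 rose. Epha7 and Ephb4 turned negative with 1 library left out. Epha4, which binds ephrins of both classes (chromosome 1, 77367185 to 77515088), had 12.1, 10.7 and 10.5 CPM in Cre 1, 2 and 3, against 1.86, 1.49 and 3.66 CPM in flox 1, 2 and 3. Each Cre library was well above each flox library, at 11.1 ± 0.876 CPM in Cre and 2.34 ± 1.16 CPM in flox (SD, n = 3), and the log2 fold change was 2.25 ± 0.36 (edgeR adjusted p = 0.0241). Epha2, an epithelial and stress-responsive member, had 170.3, 151 and 109 CPM in the Cre libraries, against 42.1, 24.2 and 94.5 CPM in the flox libraries. The groups did not overlap, but flox 3 came close to Cre 3 and the log2 fold change, 1.42 ± 0.48, missed the threshold (edgeR adjusted p = 0.0904, and 0.0176 in DESeq2). Without flox 3 it was 2.11 and passed (edgeR adjusted p = 0.00481).

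Ephb1 had 9.89, 7.65 and 3.23 CPM in the Cre libraries, against 2.26, 0.891 and 3.16 CPM in the flox libraries, with Cre 3 and flox 3 nearly equal and a log2 change of 1.71 ± 0.58 (edgeR adjusted p = 0.0896). It passed in DESeq2 (adjusted p = 0.0169), and without flox 3 in edgeR (adjusted p = 0.0441). Its exons overlap those of an antisense gene, Gm26846, and reads of both cannot be told apart where counting ignores strand. The venous receptor Ephb4, the highest Eph gene both in CPM and in FPKM, had 184, 261 and 195 CPM in the Cre libraries, against 173, 125 and 289.7 CPM in the flox libraries. It was highest in flox 3 and lowest in flox 2, with a log2 change of 0.12 ± 0.31 (edgeR adjusted p = 0.81), and its exons overlap those of the antisense gene Zan. The remaining Eph genes were low. Among the other receptors for Efna5, Epha3 had 0.926, 1.18 and 2.54 CPM in the Cre libraries, against 1.47, 0.402 and 0.249 CPM in the flox libraries, and Epha7 had 3.65, 2.17 and 8.95 CPM in the Cre libraries, against 4.60, 3.33 and 2.06 CPM in the flox libraries. Both were highest in Cre 3 and overlapped between the groups. Ephb2, which Efna5 can bind as well, had 1.93, 2.75 and 2.47 CPM in the Cre libraries, against 1.86, 0.948 and 0.771 CPM in the flox libraries, with Cre 1 only just above flox 1. Ephb3, Ephb6, Epha7, Epha3, Ephb2 and Epha1 averaged between 0.0678 and 1.24 FPKM, with log2 fold changes of 0.40 to 1.66, none past the test, and Epha8 had 1 count in all libraries together.

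Ephrins are the ligands of these receptors, tethered by a lipid anchor in class A and by a transmembrane segment in class B. Efna5 (chromosome 17, 62604184 to 62881317), a class A ligand for Epha4 and other EphA receptors, had 67.6, 49.7 and 30.6 CPM in Cre 1, 2 and 3, against 21.0, 14.5 and 19.0 CPM in flox 1, 2 and 3. The groups did not overlap, and the log2 fold change was 1.44 ± 0.30 (edgeR adjusted p = 0.0306). Cre 3 was again the lowest Cre library. Efna4 had 2.80, 1.42 and 2.18 CPM in the Cre libraries, against 1.08, 0.604 and 1.02 CPM in the flox libraries, with separate groups and a log2 change of 1.24 ± 0.43 (edgeR adjusted p = 0.093, and 0.0223 in DESeq2), and its exons overlap an antisense gene, 4731419I09Rik. Efna1, the ephrin with the highest level per length in FPKM, had 17.9, 17.1 and 12.5 CPM in the Cre libraries, against 13.5, 15.9 and 16.2 CPM in the flox libraries, and did not separate, at 0.06 ± 0.18.

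Efnb2, the arterial ephrin and partner of Ephb4, had 147, 125 and 61.1 CPM in the Cre libraries, against 55.4, 37.6 and 81.5 CPM in the flox libraries. It was high in Cre 1 and Cre 2, with flox 3 above Cre 3, at a log2 change of 0.93 ± 0.39 (edgeR adjusted p = 0.145). Efnb3, another ligand of Epha4, had 1.28, 1.13 and 1.13 CPM in the Cre libraries, against 0.709, 0.316 and 0.895 CPM in the flox libraries, and the class A ligand Efna2 had 2.78, 2.20 and 2.25 CPM in the Cre libraries, against 1.68, 1.72 and 1.79 CPM in the flox libraries. Both were low and had Cre above flox, at 0.87 ± 0.48 and 0.47 ± 0.28, neither past the test. Efnb1 was at -0.14 ± 0.18 and turned to 0.02 with library totals, not past the test. Efna3 had 2, 0 and 4 counts in Cre 1, 2 and 3 and 0 in each flox library and was not tested.

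Netrins and their Unc5 receptors showed 0 calls among 6 tested genes in edgeR, with 2 at an unadjusted p below 0.05, and 1 call in DESeq2. The same counts over all 14795 genes tested were 2263, 5150 and 4334. Ntn1, the founding secreted ligand, had 35.9, 27.6 and 89.2 CPM in the Cre libraries, against 39.4, 24.9 and 26.5 CPM in the flox libraries. Cre 3 alone stood out, and the log2 fold change of 0.75 ± 0.45 (edgeR adjusted p = 0.282) was 0.09 without it. The mean of the 12 stellate markers was 3.37, 3.31 and 4.48 log2 CPM in Cre 1, 2 and 3 and 4.24, 4.06 and 3.12 log2 CPM in flox 1, 2 and 3, highest in Cre 3 and next in flox 1, and the part of stellate cells in the Ntn1 values was not tested. Ntn4, which binds laminin in basement membranes, had 14.5, 27.2 and 17.4 CPM in the Cre libraries, against 36.7, 41.7 and 25.1 CPM in the flox libraries. Cre 2 overlapped flox 3, and the log2 fold change was -0.81 ± 0.29 (edgeR adjusted p = 0.103, and 0.0423 in DESeq2), and passed without flox 3 (edgeR adjusted p = 0.0343).

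Unc5b, a vascular netrin receptor, had 226, 275 and 245 CPM in the Cre libraries, against 141, 81.9 and 202 CPM in the flox libraries. Cre lay above flox in every library, with flox 3 nearest, and the log2 fold change, 0.81 ± 0.31, missed the threshold (edgeR adjusted p = 0.115). Without flox 3 it was 1.16 and passed (edgeR adjusted p = 0.0151). Unc5a had 12.1, 17.5 and 13.1 CPM in the Cre libraries, against 14.4, 12.1 and 22.4 CPM in the flox libraries, and a log2 fold change of -0.20 ± 0.27, and its exons overlap those of Hk3, an antisense hexokinase gene. Ntn3 and Ntn5 averaged 0.0452 and 0.113 FPKM, with log2 fold changes of 0.65 ± 1.04 and -1.04 ± 0.71. Unc5c had 2, 16 and 4 counts in Cre 1, 2 and 3 and 1, 0 and 0 counts in flox 1, 2 and 3, and Sema4f had at most 7 counts in a library, so neither was tested.

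Compared per length, in the FPKM that the authors deposited, 14 of the 64 genes averaged at least 10 FPKM over the 6 libraries and 25 averaged under 1. The order began with Nrp2 at 121 FPKM, Plxnb2 at 91.5, Plxnd1 at 54.9, Ephb4 at 47.4, Plxna1 at 38.9, Unc5b at 34.0 and Epha2 at 24.5 FPKM, all receptors. The ligand with the highest FPKM was Sema3f at 18.1. Of the genes called, Efna5 averaged 6.18 FPKM and Sema5a 4.60, Sema3d 2.17, Sema3a 1.67 and Epha4 1.10, while Slit2 and Slit1 stayed at 0.496 and 0.166 FPKM. The length behind these values departed by over 2-fold from the summed exons of the GENCODE annotation for Sema6a, Slit2, Unc5a and Unc5c, so their place in the order is uncertain. Exons of Plxna1, Plxna4, Plxnb1, Plxnc1, Sema4a, Sema4c, Epha1, Ntn3 and Ntn5 also overlap those of another annotated gene, whereas no overlap was annotated for the 7 genes called, and reads in shared exons may have been split between the genes.

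**Figure D4:**
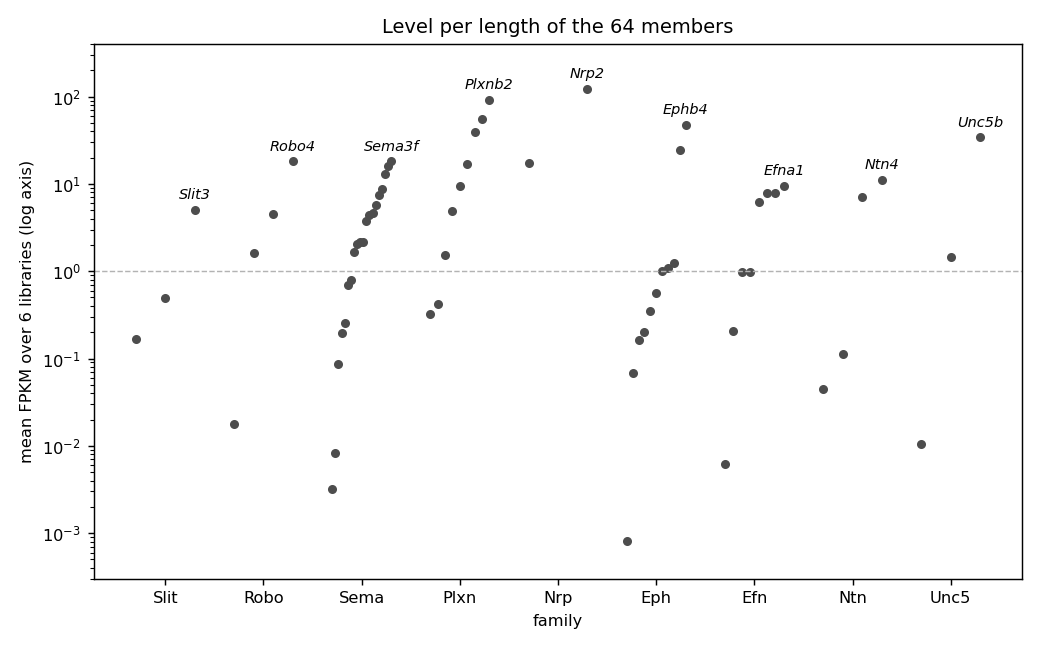
Mean FPKM over the 6 libraries on a log axis (y axis) for each of the 64 guidance genes by family (x axis), with the most abundant gene of each family named and a dashed line at 1 FPKM. Nrp2 and Plxnb2 lead at 121 and 91.5 FPKM, and the Slit family does not exceed 5.06 FPKM.

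The guidance genes fell into patterns across libraries that did not all follow the titles. Groups did not overlap for 20 of the 58, or 34.5%, near the 39.6% over all genes tested. Cre lay above flox in 18 of the 58, beside 2906 of 14795 genes (19.6%). It lay below in 2 of the 58, Slit1 and Sema6b, beside 2955 of 14795 genes (20%). These differences by direction were not tested. In 13 of the 18, or 72.2%, Cre 3 was the lowest Cre library, beside 54.1% of all genes with Cre above flox. In 11 of the 18, or 61.1%, flox 3 was the highest flox library, beside 57% of all such genes. Cre 3 is also the Cre library without high mesothelial markers, and the part of those cells in the results was not tested. Sema3a, Sema3d and Epha4 were less uneven, and Cre 3 reached 25.5, 17.6 and 10.5 CPM there. The maximum lay in flox 3 for 9 genes, Nrp2, Robo1, Ephb4, Plxnd1, Sema3f, Sema4c, Sema6a, Unc5a and Ntn5. Endothelial markers summed to 5912 CPM in flox 3, against 2523 and 1992 CPM in flox 1 and flox 2. Their part was not tested. The maximum lay in Cre 3 for 7 genes, Robo2, Ntn1, Epha1, Epha3, Epha7, Plxna1 and Sema7a. These counts are 12.1% in Cre 3 and 15.5% in flox 3, beside 14.6% and 13.6% of all genes tested, and so close to that background. Cre 1 held the maximum of 19 genes, 32.8% beside 16.3% of all genes, and flox 2 the minimum of 29 genes, 50% beside 25.3%, and neither difference was tested.

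**Figure D5:**
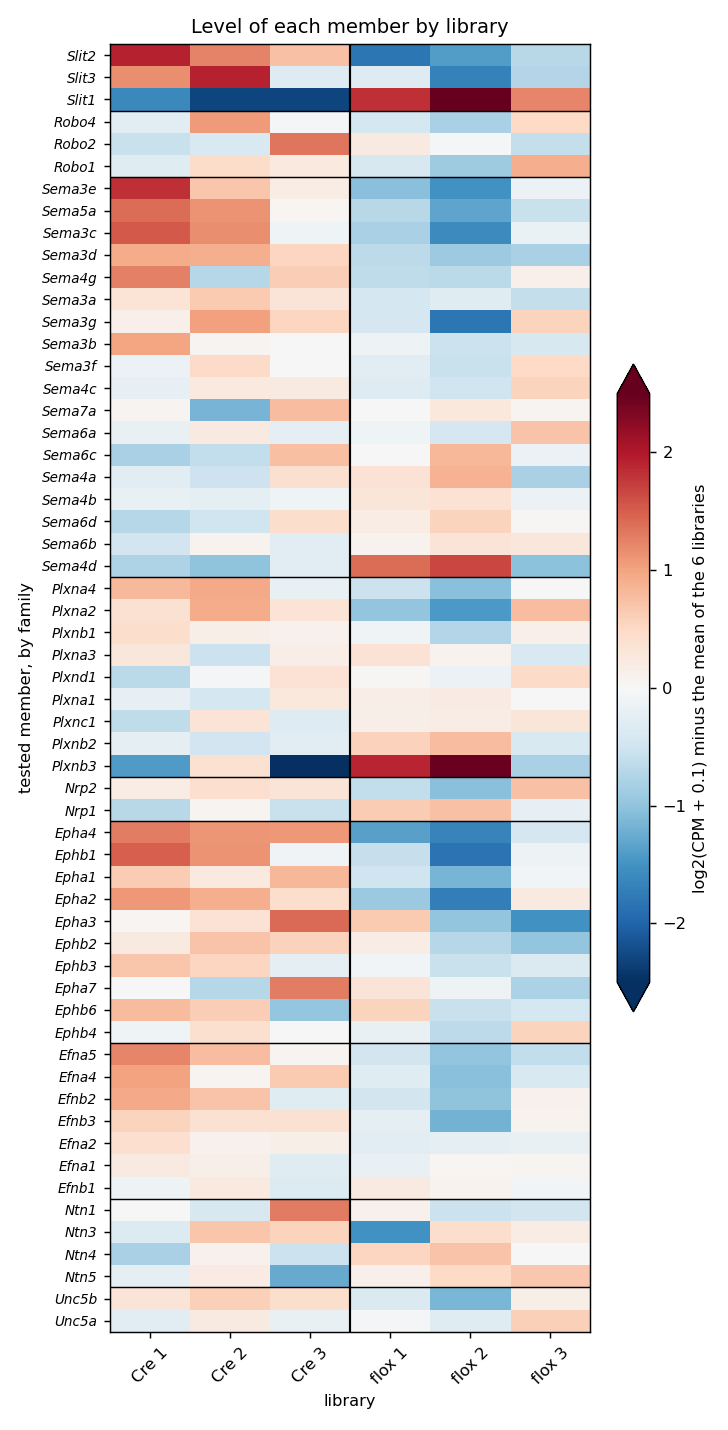
Level of each of the 58 tested guidance genes (rows, by family) in each library (columns, Cre left of flox) as log2(CPM + 0.1) minus the mean of the 6 libraries, red above and blue below. Slit2, Epha4, Sema3a and Sema3d are red in Cre and blue in flox, Slit1 the reverse, and flox 3 often resembles the Cre columns, as for Sema4d, Plxnb2 and Plxna2. Flox 3 lay within the range of the Cre libraries for 22 of the 58 genes (37.9%), beside 34.3% of all genes tested.

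Signalling partners of the families, a list of 54 receptors, adaptors and effectors of which 52 were in the table and 49 were tested, had 4 genes higher and 6 lower in Cre, 20.4% called beside 15.3% over all genes, with a median log2 fold change of 0.20. The balance of directions depended on the setting. It was 4 higher and 6 lower with RLE size factors, 6 and 3 with library totals, and 6 and 4 without the count filter. DESeq2 called 9 higher and 7 lower. In edgeR, leaving out Cre 3 gave 4 and 2, and leaving out flox 3 gave 15 and 9. Without Cre 1, Cre 2, flox 1 or flox 2, or with a replicate block, edgeR called 0. The plexin-binding GTPase Rnd1 rose, with 139.9, 85.2 and 71.1 CPM in the Cre libraries, against 17.1, 13.4 and 36.5 CPM in the flox libraries, and a log2 change of 2.14 ± 0.44 (edgeR adjusted p = 0.0293). The actin-oxidising enzyme Mical2 (1.31 ± 0.19), the guanine nucleotide exchange factor Farp1 (1.11 ± 0.17) and the Slit-Robo GTPase-activating protein Srgap3 (0.98 ± 0.21) rose as well. Its relative Srgap2 fell, with 96.2, 102 and 87.7 CPM in the Cre libraries, against 207, 227 and 158 CPM in the flox libraries, at -1.05 ± 0.16 (edgeR adjusted p = 0.0237). The tyrosine kinase Fes (-2.04 ± 0.37), the Rac exchange factors Vav2 (-0.96 ± 0.20) and Vav3 (-0.46 ± 0.11), the actin regulator Vasp (-0.63 ± 0.13) and the kinase Pak2 (-0.40 ± 0.10) fell too. Fes, Vav2 and Srgap2 were highest in flox 1 and flox 2, as were the macrophage markers, whose part was not tested. Neogenin, Neo1, a netrin receptor, was at 0.52 ± 0.41 with overlapping groups.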

How the data were processed

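RNA from primary mouse hepatic stellate cells was sequenced in 6 libraries after a SMARTER mRNA-Seq kit preparation, per the labels' protocols. The deposited table holds raw read counts per gene, with FPKM beside them. The aligner, the counting tool and their strand setting were not given in the sources used here. GRCm38, mm10 and hg38 are named in the submitters' processing notes with no role. The FPKM deposited by the authors equal the count over library total and 1 length per gene, with no composition factor, in all of 11560 genes over 50 counts (tolerance 1e-06), and served only to compare levels between genes. Counts ranged from 37273142 to 41006722 per library, and 3 counts correspond to 0.0724 to 0.0862 CPM.

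Groups were taken from the titles. The count test was edgeR 4.0.16 under R 4.3.3 (TMM, filterByExpr with a minimum count of 10 and a minimum total of 15, quasi-likelihood F test, Benjamini-Hochberg adjustment). The filter kept 14795 of 22966 genes and removed 8171. Standard errors are the log2 fold change over the square root of F. The test was checked on simulated data. Alternatives were RLE size factors, library totals, no count filter, DESeq2 1.42.0, each library left out in turn and a replicate block. No 2 libraries agreed within sampling noise.

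The guidance genes, marker lists and signalling partners were chosen with earlier results of these data known. Values in every library are given for guidance genes past an adjusted p of 0.05, for the 2 members of each family with the highest mean FPKM, and for tested ligands or receptors of the genes past the threshold. Of the 10 signalling partners past it, Rnd1 and Srgap2, chosen after their values were seen, have such values and the others a fold change. Other genes with such values, Sema3c, Sema3e, Sema4d, Sema6b, Plxnb3, Ephb1 and Efna4 among them, were chosen after their values were seen. Positions and exon overlaps are from GENCODE M21 on GRCm38, promoters from RefSeq on GRCm38.p6.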

Additional observations from a re-analysis of the deposited data

How the results depend on the processing

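With the edgeR fit on all 6 libraries, 2263 of all genes and 7 of the 58 tested guidance genes were called, 6 higher and 1 lower in Cre. Leaving out 1 library in turn gave 0 to 5329 calls over all genes and 0 to 21 among the guidance genes, 0 to 14 higher and 0 to 7 lower. The count was 0 without Cre 1, Cre 2, flox 1 or flox 2, with 3593, 3978, 3720 and 3562 genes at an unadjusted p below 0.05 in edgeR, and highest without flox 3. DESeq2, which was not run with a library left out, called 4334 genes and 18 guidance genes, 13 higher and 5 lower. Without the count filter 9 guidance genes were called, and with RLE size factors or library totals 7 were. Library totals shifted the median of all genes by 0.16 on the log2 scale and gave 1415 genes higher and 1066 lower, beside 940 higher and 1323 lower with TMM. All 7 called genes kept their sign under each of these settings, with log2 fold changes over the single-library omissions of 2.33 to 3.09 for Slit2, -6.69 to -4.99 for Slit1, 2.02 to 2.73 for Epha4, 1.56 to 1.74 for Sema3d, 0.81 to 0.99 for Sema3a, 1.53 to 2.11 for Sema5a and 1.16 to 1.71 for Efna5. Their adjusted p reached 0.107 to 0.115 in edgeR where 1 library was missing. A replicate block gave 0 calls over all genes, 0 among the guidance genes and 0 in each direction in edgeR, with 4296 genes and 16 guidance genes at an unadjusted p below 0.05. Same-numbered libraries did not deviate together, with correlations of 0.001, -0.138 and -0.069, and no library correlated best with its own number. With so few libraries, these correlations of deviations from group means cannot exclude a paired design. None of the genes that changed sign was called. With library totals Efnb1, Plxna3 and Sema7a turned to 0.0221, 0.13 and 0.13, and without the count filter Sema7a turned to 0.0025. Over the single-library omissions the log2 fold change ran from -0.0157 to 0.22 for Efna1, -0.28 to 0.0069 for Efnb1, -0.17 to 0.95 for Epha7, -0.11 to 0.52 for Ephb4, -0.21 to 0.22 for Plxna3, -0.46 to 0.0461 for Plxnd1, -0.22 to 0.80 for Robo1, -0.35 to 0.84 for Robo2. It ran from -0.0155 to 0.55 for Sema3f, -0.71 to 0.0605 for Sema4a, -0.07 to 0.51 for Sema4c, -0.41 to 0.20 for Sema6a, -1.08 to 0.0584 for Sema6c, -0.54 to 0.38 for Sema7a and -0.36 to 0.11 for Unc5a. The cause was not tested. Depth limits the lowest genes: 3 counts correspond to 0.0724 to 0.0862 CPM.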
